A study of Mus musculus with 24 samples.

Results

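Neurexins and neuroligins are cell adhesion proteins that meet across the synaptic cleft. The 5 genes described here, *Nrxn2*, *Nrxn3*, *Nlgn1*, *Nlgn2* and *Nlgn3*, were taken by symbol from the 26411 genes of each count table, and the group was selected on the measured rise of *Nrxn3* counts in proliferating *Kat6a*-/- vs. *Kat6a*+/+ cells, so that values of that comparison are given as a description. Messenger RNA was sequenced in neural stem and progenitor cells (NSPCs) grown from the dorsal telencephalon, the precursor of the cortex, of C57BL/6 mouse embryos at embryonic day 12.5. The embryos came from crosses of heterozygous mice and carried both functional alleles of *Kat6a* (*Kat6a*+/+), one (*Kat6a*+/-) or none (*Kat6a*-/-). The null allele is a germline deletion of exons that ends the reading frame within the catalytic domain of the encoded histone acetyltransferase, so that every cell of a mutant embryo carried the deletion. Cells were either kept for 3 days in medium with FGF2 and EGF (proliferating) or plated for 3 days on poly-L-ornithine and laminin in medium with fetal bovine serum (differentiating). Each of the 6 groups of genotype and culture held 4 libraries.

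Neurexins sit mainly in the presynaptic membrane and neuroligins in the postsynaptic membrane, and each neurexin gene gives a long (alpha) and a short (beta) protein from separate start sites. Neuroligin-1 is known mostly from excitatory synapses, neuroligin-2 from inhibitory synapses, and neuroligin-3 from both. Neurons are not their only source, since radial glia, astrocytes and oligodendrocyte precursors also carry mRNA of several of these genes. A count per gene adds all isoforms and start sites together, so that alpha and beta neurexins could not be told apart.

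Library totals ranged from 7826660 to 40838203 counts. The replicates of a group came from different embryos, by their library names, in up to 7 litters per culture, and 6 embryos gave a library to both cultures. RNA of proliferating and differentiating cells was extracted with different kits, so that kit and culture cannot be told apart. Sex and genotype were partly confounded, since *Xist* exceeded 10 CPM (read counts scaled to library size with TMM factors) in 3 of 4 libraries of every mutant group but in just 1 of 4 wild-type libraries, and litter was partly confounded too. *Kat6a* itself was at 395 ± 16.7 CPM in proliferating *Kat6a*+/+ and 355 ± 24.6 CPM in proliferating *Kat6a*-/- libraries (mean ± SD, n = 4). Reads outside the deleted exons still count, so that these values are no check of the genotype labels. The NSPC markers *Sox2* and *Nes* were at 247 CPM or more in every library, and the 4 microglial markers summed to at most 0.783 CPM. In bulk RNA, fewer cells of a type and less RNA per cell cannot be told apart.

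The genes differ in size and in their promoters. On mm39 (GENCODE), *Nrxn3* spans 1612.1 kb of the plus strand (chr12:88689646-90301709) and *Nrxn2* 125.4 kb (chr19:6468761-6594199, plus). *Nlgn1* spans 906.2 kb (chr3:25480379-26386609, minus), *Nlgn2* 14.7 kb (chr11:69713948-69728613, minus) and the X-linked *Nlgn3* 26.8 kb (chrX:100342750-100369570, plus). The length over which the reads were counted was 9.44 kb for *Nrxn3*, 6.66 kb for *Nrxn2*, 16.45 kb for *Nlgn1*, 5.74 kb for *Nlgn2* and 3.88 kb for *Nlgn3*. RefSeq promoter entries (GRCm38.p6), running from 250 bases before to 50 bases after a start, were found for 3 of the 5 genes. *Nrxn3* had 3 such entries, *Nlgn1* 2 and *Nlgn2* 1, and each was placed on mm39 by an exact match that occurred once on its chromosome.

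The most CpG-rich entry of each gene is shown. It was picked from several entries for *Nrxn3* and *Nlgn1*, whereas *Nlgn2* had just the entry shown, so that the genes were not treated alike. The *Nrxn3* entry, from position 89779003, lies inside the gene, which starts at position 88689646. Counts per gene do not show which start was used, and a link of these sequences to the expression changes was not tested. Capitals mark each CG, which reads the same on both strands.
Nrxn3, chr12:89779003-89779302, plus strand: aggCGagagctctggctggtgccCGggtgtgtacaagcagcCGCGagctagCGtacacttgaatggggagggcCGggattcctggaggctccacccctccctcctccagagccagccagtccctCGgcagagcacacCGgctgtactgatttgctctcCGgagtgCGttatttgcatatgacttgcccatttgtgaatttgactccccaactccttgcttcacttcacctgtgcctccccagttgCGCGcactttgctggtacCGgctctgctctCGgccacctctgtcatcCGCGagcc
Nlgn1, chr3:26386009-26386308, minus strand: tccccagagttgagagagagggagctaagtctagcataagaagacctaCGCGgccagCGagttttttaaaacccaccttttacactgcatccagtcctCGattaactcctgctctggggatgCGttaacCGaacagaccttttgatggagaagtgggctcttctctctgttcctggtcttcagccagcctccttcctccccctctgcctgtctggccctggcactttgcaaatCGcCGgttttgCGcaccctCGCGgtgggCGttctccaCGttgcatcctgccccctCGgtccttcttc
Nlgn2, chr11:69728561-69728860, minus strand: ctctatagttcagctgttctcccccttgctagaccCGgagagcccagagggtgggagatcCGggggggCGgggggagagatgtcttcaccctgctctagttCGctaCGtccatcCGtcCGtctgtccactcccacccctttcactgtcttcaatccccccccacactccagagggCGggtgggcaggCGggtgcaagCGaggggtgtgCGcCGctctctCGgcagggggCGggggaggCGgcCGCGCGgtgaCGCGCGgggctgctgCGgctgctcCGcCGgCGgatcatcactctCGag

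These 300 bases held 16 CG in *Nrxn3*, 14 in *Nlgn1* and 26 in *Nlgn2*, against a median of 7 over 32851 promoters of the same length. As many or more CG were found in 33.0% of all promoters for the *Nrxn3* entry, 36.3% for *Nlgn1* and 16.9% for *Nlgn2*. The other *Nrxn3* entries held 2 CG (chr12:88761024-88761323) and 6 CG (chr12:88919910-88920209), and the other *Nlgn1* entry held 6 CG (chr3:26208086-26208385). *Nrxn2* and *Nlgn3* are named only.

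To ask how much of each transcript wild-type cells held, levels were compared per kilobase. In proliferating *Kat6a*+/+ NSPCs, *Nlgn2* was highest at 35.2 ± 1.87 CPM per kb (mean ± SD, n = 4), followed by *Nlgn3* at 25.2 ± 5.52 and *Nrxn2* at 18.1 ± 3.65 CPM per kb. The libraries of *Nlgn3* reached from 21.2 to 33.3 and those of *Nlgn2* from 33.0 to 37.2 CPM per kb, so that these neighbours touched, and *Nlgn3* and *Nrxn2* also overlapped. Read within each library, *Nlgn3* was above *Nrxn2* in all 4, closest in replicate 2 (22.8 against 21.7 CPM per kb). *Nlgn2* was above *Nlgn3* in all but replicate 3 (33.0 against 33.3 CPM per kb). *Nlgn1* was far lower, at 0.876 ± 0.136 CPM per kb, and *Nrxn3* was lowest at 0.0358 ± 0.00762 CPM per kb. In differentiating *Kat6a*+/+ NSPCs the first place went to *Nrxn2*, at 33.7 ± 3.92 CPM per kb, ahead of *Nlgn2* at 25.6 ± 1.08 and *Nlgn3* at 14.0 ± 3.19 CPM per kb. Here neither *Nrxn2* and *Nlgn2* nor *Nlgn2* and *Nlgn3* overlapped between libraries. *Nlgn1* stood at 2.21 ± 0.224 and *Nrxn3* at 0.989 ± 0.278 CPM per kb, again the lowest pair.

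The sum of the 5 transcripts per kilobase was thus made up almost wholly of *Nrxn2*, *Nlgn2* and *Nlgn3*. In proliferating *Kat6a*+/+ NSPCs *Nrxn3* held 0.0451% ± 0.00947 of that sum and *Nlgn1* 1.10% ± 0.157 (mean ± SD, n = 4). In proliferating *Kat6a*-/- NSPCs these shares were 1.61% ± 0.750 and 2.36% ± 0.240, while *Nlgn2* held 37.6% ± 2.95 against 44.4% ± 2.90 in *Kat6a*+/+.

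**Figure D1:**
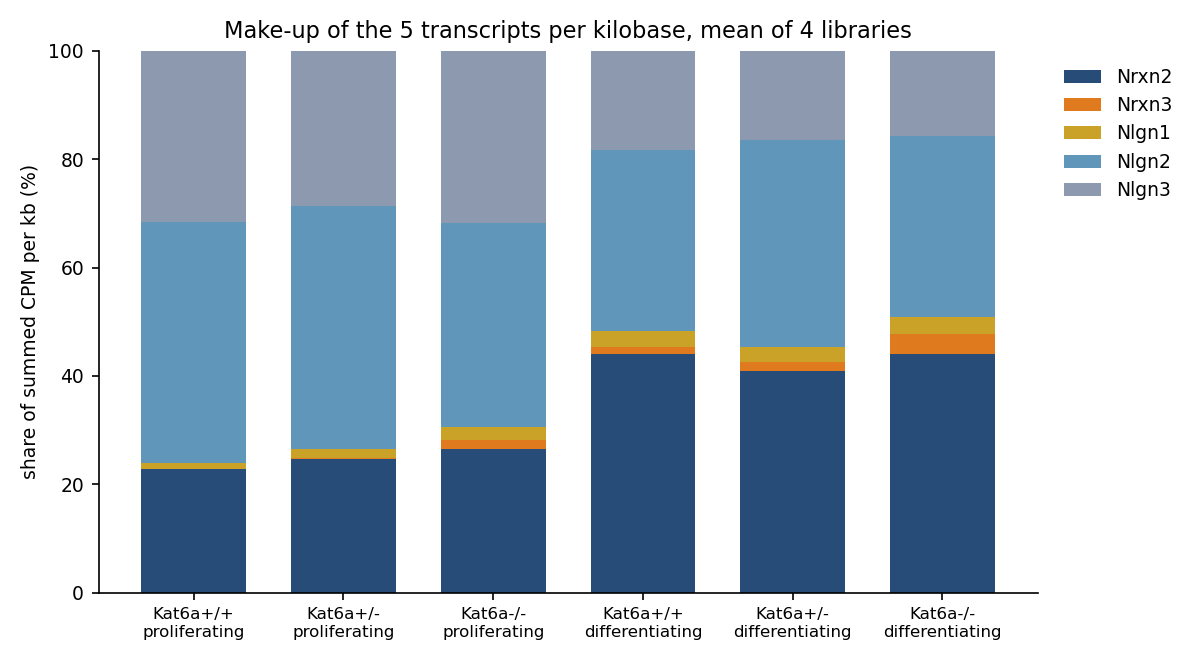
Stacked bars give the mean share of each of the 5 genes in their summed CPM per kilobase (%, vertical axis) for the 6 groups of 4 libraries. *Nrxn2* took 22.8% of the sum in proliferating and 44.1% in differentiating *Kat6a*+/+ NSPCs, and *Nrxn3* took 0.0451% and 0.258% in proliferating *Kat6a*+/+ and *Kat6a*+/- NSPCs and between 1.29% and 3.73% in the other 4 groups.

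To examine loss of *Kat6a* in dividing cells, the 3 genotypes were compared in the proliferating culture. *Nrxn3* was close to the counting limit in *Kat6a*+/+ NSPCs and was present in every *Kat6a*-/- library. The 4 *Kat6a*+/+ libraries, replicates 1 to 4, had 0.329, 0.240, 0.402 and 0.381 CPM, from 13, 4, 4 and 3 counts. The 4 *Kat6a*-/- libraries had 20.7, 10.6, 15.2 and 6.48 CPM, from 183, 82, 139 and 65 counts. The lowest *Kat6a*-/- library was therefore far above the highest *Kat6a*+/+ library, and 13.7% of 12276 genes tested had *Kat6a*-/- ranges that lay wholly above in this way.

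The ratio of the *Nrxn3* means was 39.2. From the pooled counts, 469 against 24, the ratio was 40.5 with an exact Poisson 95% interval of 26.9 to 63.8, which covers counting error only. The fitted log2 fold-change was 5.04 (SE 0.65). Because this rise chose the gene, no test is attached to it. Within the litter labelled 4633 the *Kat6a*+/+ library had 0.402 CPM and the *Kat6a*-/- libraries 20.7 and 10.6 CPM, and within the litter labelled 4746 the values were 0.381 and 15.2 CPM. The difference was thus present within both litters that held these genotypes side by side.

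*Kat6a*+/- NSPCs lay between the other genotypes for *Nrxn3*, with 0.563, 1.60, 1.96 and 2.73 CPM from 7, 16, 24 and 28 counts. All 4 lay above the *Kat6a*+/+ range and below the *Kat6a*-/- range. Ranges that did not overlap, with *Kat6a*+/- higher, were found for 1.89% of 12276 genes tested. The *Kat6a*+/- mean was 5.07 times the *Kat6a*+/+ mean, and the fitted log2 fold-change was 2.05 (SE 0.73). This comparison used the same *Kat6a*+/+ libraries as the one that chose the gene, so that it is a description as well.

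*Nrxn2*, the more abundant neurexin of the pair, differed little. Its *Kat6a*+/+ libraries held 132, 145, 88.2 and 117 CPM. The *Kat6a*+/- libraries were nearly alike, at 115, 114, 117 and 121 CPM, and the *Kat6a*-/- libraries stood at 142, 120, 146 and 210 CPM. The groups overlapped, with 2 of 4 *Kat6a*-/- libraries above the *Kat6a*+/+ range. The fitted log2 fold-change was 0.42 (SE 0.14) in *Kat6a*-/- vs. *Kat6a*+/+ and 0.01 (SE 0.14) in *Kat6a*+/- vs. *Kat6a*+/+ NSPCs.

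Of the neuroligins, *Nlgn1* was higher in proliferating *Kat6a*-/- NSPCs. Its *Kat6a*+/+ libraries had 13.1, 13.9, 17.7 and 12.9 CPM, and its *Kat6a*-/- libraries 35.0, 29.8, 38.4 and 31.8 CPM. The *Kat6a*+/- libraries had 13.2, 15.6, 19.5 and 25.0 CPM. The *Kat6a*-/- range lay above both other genotypes, and 6.22% of genes tested lay wholly above *Kat6a*+/- in this way. The mean was 2.34 times that of *Kat6a*+/+, with a fitted log2 fold-change of 1.23 (SE 0.16). Against *Kat6a*+/- NSPCs *Nlgn1* was higher by 0.91 (log2, SE 0.15, false discovery rate (FDR) 0.00266 by limma). The *Kat6a*+/- libraries did not enter the choice of genes. The *Kat6a*-/- libraries did, through *Nrxn3*, so that this comparison is not independent of the choice. Within litter 4633 *Nlgn1* was at 17.7 CPM in the *Kat6a*+/+ library and at 35.0 and 29.8 CPM in the *Kat6a*-/- libraries, and within litter 4746 at 12.9 and 38.4 CPM.

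The abundant neuroligins did not follow *Nlgn1*. Wild-type libraries held 208, 198, 190 and 214 CPM of *Nlgn2*, and *Kat6a*-/- libraries 168, 190, 187 and 206 CPM (log2 fold-change -0.07, SE 0.08, 95% interval -0.24 to 0.10). For *Nlgn3* the wild-type libraries held 82.3, 88.7, 129 and 90.4 CPM, and the *Kat6a*-/- libraries 122, 121, 116 and 70.0 CPM (0.13, SE 0.15, 95% interval -0.18 to 0.44). Both genes overlapped between the genotypes. With single libraries left out, the *Nlgn3* value ran from 0.04 to 0.28. The value of 0.28 (SE 0.12, limma FDR 0.112) was reached without *Kat6a*-/- replicate 4. Against *Kat6a*+/- NSPCs, *Nlgn3* of *Kat6a*-/- NSPCs was at 0.39 on the log2 scale (SE 0.14, 95% interval 0.08 to 0.70, limma FDR 0.0808). In *Kat6a*+/- libraries *Nlgn2* ran from 161 to 196 CPM and *Nlgn3* from 67.0 to 92.6 CPM.

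**Figure D2:**
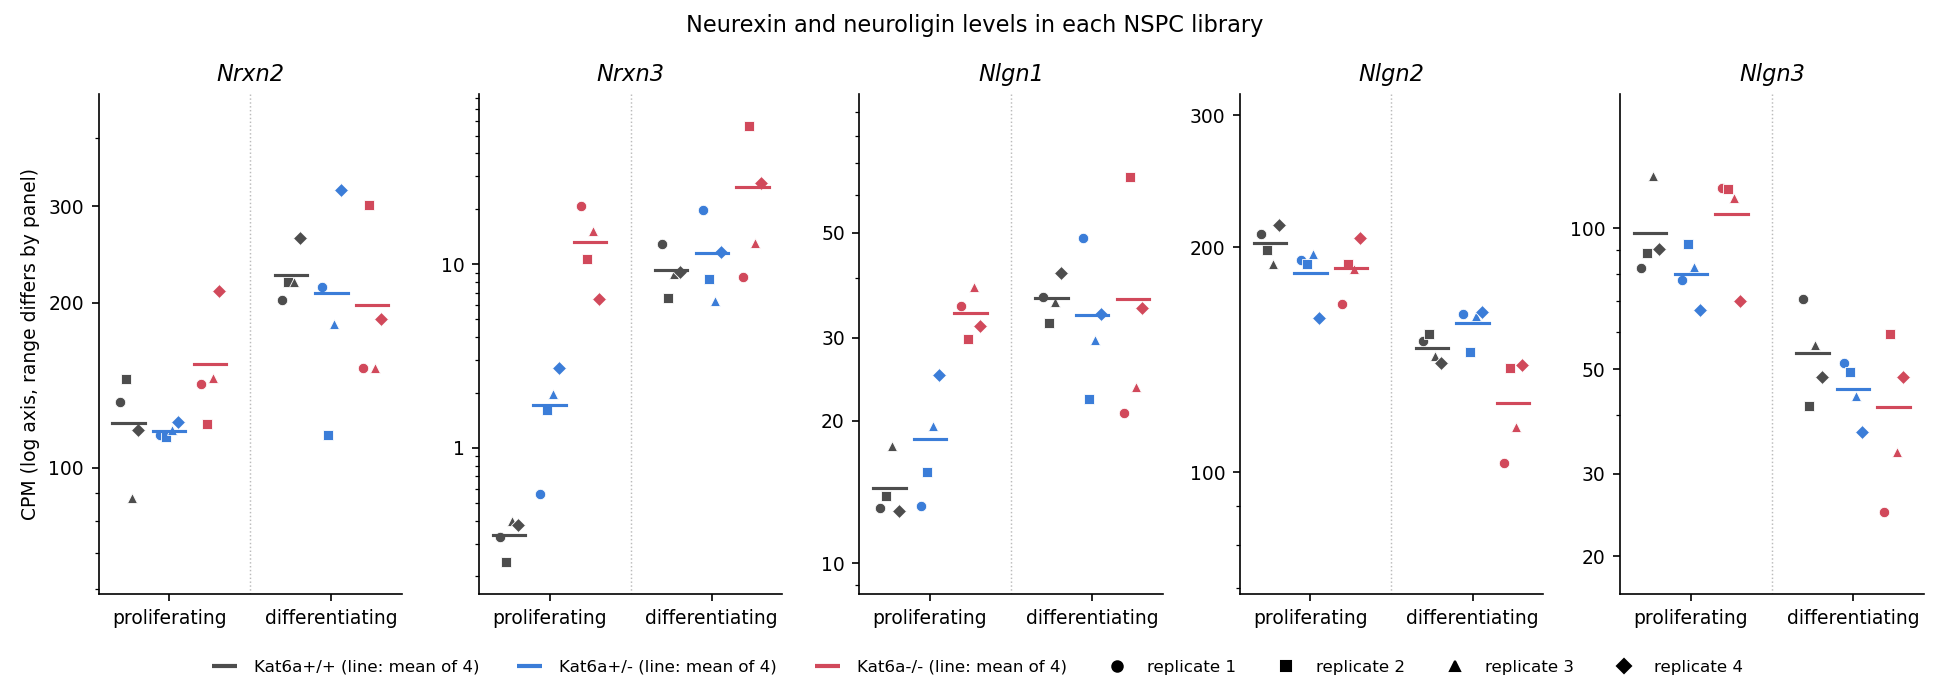
Each point is a library and each line the mean of the 4 libraries of a group, with CPM on a logarithmic vertical axis whose range differs between the panels. *Nrxn3* and *Nlgn1* of proliferating *Kat6a*-/- NSPCs (6.48 to 20.7 and 29.8 to 38.4 CPM) lie apart from the *Kat6a*+/+ points beside them. Their ranges overlap those of the differentiating *Kat6a*+/+ points (6.55 to 12.9 and 32.2 to 41.1 CPM).

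In this comparison 3 of the 5 genes were called at an FDR under 0.05, all higher, where 30.0% of 12276 genes tested were called and 16.2% were called higher. Since the comparison served to choose *Nrxn3*, nothing is read from this count, and the call of *Nrxn2* was lost in all 8 alternative fits. In *Kat6a*-/- vs. *Kat6a*+/- NSPCs 2 of the 5 genes were called, *Nrxn3* and *Nlgn1*, both higher, against 14.8% of genes tested, of which those called higher were 8.47%. *Nrxn3* differed by 2.99 (SE 0.50) on the log2 scale there, which is a description because its *Kat6a*-/- libraries chose it. In *Kat6a*+/- vs. *Kat6a*+/+ NSPCs limma called 0 of 12276 genes in all, 912 of them at an unadjusted p under 0.05. Both comparisons with *Kat6a*+/+ shared those libraries, and the log2 fold-changes of *Nlgn1* were 0.32 (SE 0.16) in *Kat6a*+/- and 1.23 in *Kat6a*-/- NSPCs.

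**Figure D3:**
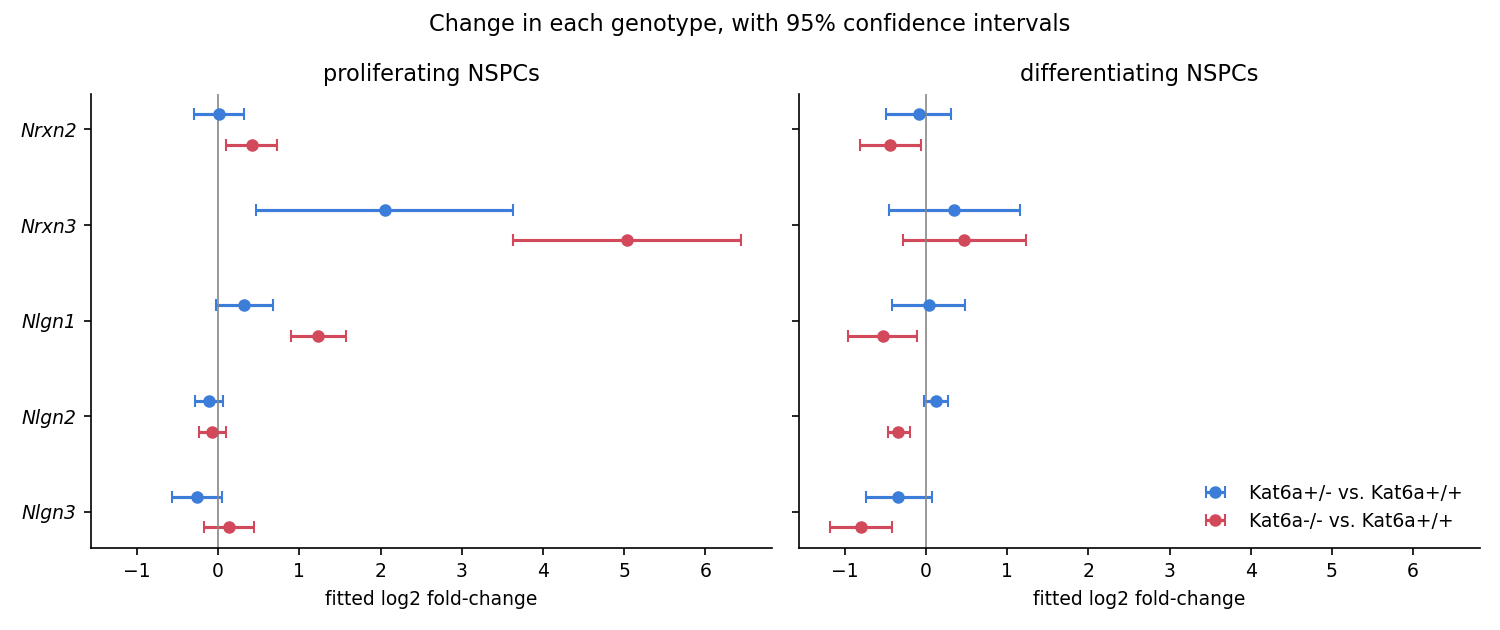
Points are fitted log2 fold-changes against *Kat6a*+/+ (horizontal axis) and bars their 95% confidence intervals, for *Kat6a*+/- and *Kat6a*-/- NSPCs in each culture. Farthest to the right lie the proliferating points of *Nrxn3*, at 5.04 for *Kat6a*-/- and 2.05 for *Kat6a*+/-, followed by *Nlgn1* of *Kat6a*-/- at 1.23, and in differentiating cells the *Kat6a*-/- points other than *Nrxn3* lie between -0.80 and -0.34.

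Markers of several cell types moved beside *Nrxn3* and *Nlgn1*. The 8 astrocyte markers summed to 786 to 979 CPM in proliferating *Kat6a*+/+ and 1440 to 2280 CPM in proliferating *Kat6a*-/- libraries. Of 7 tested, 5 were called higher and 0 lower. In this comparison 30.0% of all genes tested were called and 16.2% were called higher. *Aldh1l1* of the same list went the other way without a call (-1.55, SE 0.69, limma FDR 0.109), from 16.2 ± 10.1 to 4.55 ± 2.05 CPM. *Slc1a3*, a glutamate transporter also of radial glia, made up most of the sum, at 652 ± 78.7 and 1320 ± 334 CPM, whereas *Gfap* was at 0.249 ± 0.230 and 3.21 ± 2.25 CPM and *Aqp4* stayed at or below 1.10 CPM in every proliferating library (mean ± SD, n = 4). The 10 neuron markers summed to 1480 to 1660 CPM in wild-type libraries and 1590 to 1720 CPM in mutant *Kat6a*-/- libraries, mostly from *Map2* and *Gap43*. Of 9 tested, 1 was higher, 3 lower and 5 not called. *Map2* was the higher one (0.25, SE 0.08), and *Tubb3* (-1.19, SE 0.28), *Rbfox3* (-1.78, SE 0.49) and *Elavl4* (-0.62, SE 0.21) were lower. Of 8 neural stem cell markers 2 rose (*Fabp7* by 0.44, SE 0.13, and *Msi1* by 0.43, SE 0.12, on the log2 scale) and 2 fell (*Vim* -0.47, SE 0.08, and *Nes* -0.36, SE 0.12). *Gad1*, an enzyme of GABA synthesis and the 1 interneuron marker tested, rose by 1.22 (SE 0.33), and of 7 oligodendrocyte lineage markers 1 rose and 0 fell. The 7 excitatory lineage markers summed to at most 2.89 CPM in every proliferating library. The part of these cell types in the *Nrxn3* and *Nlgn1* values was not tested.

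Differentiation of wild-type cells was examined next, so that the *Kat6a*-/- levels could be set beside it. All 5 genes were called in differentiating vs. proliferating *Kat6a*+/+ NSPCs, as were 72.9% of 13590 genes tested (36.7% higher and 36.2% lower). The neurexins and *Nlgn1* were higher in differentiating cells. *Nlgn1* went from 14.4 ± 2.24 to 36.4 ± 3.69 CPM (mean ± SD, n = 4), a log2 fold-change of 1.38 (SE 0.30, FDR 2.86e-04 by limma). *Nrxn2* went from 121 ± 24.3 to 225 ± 26.1 CPM (0.91, SE 0.25, FDR 0.00256 by limma). *Nrxn3* was at 0.338 ± 0.0720 and 9.34 ± 2.62 CPM, with a log2 fold-change of 4.68 (SE 1.30) that is given without a test. Comparisons between cultures were blocked on litter, and with the embryo as the block the calls of the 5 genes were the same.

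*Nlgn2* and *Nlgn3* went the other way. *Nlgn2* fell from 202 ± 10.7 to 147 ± 6.20 CPM (log2 fold-change -0.46, SE 0.09, limma FDR 1.01e-04) and *Nlgn3* from 97.7 ± 21.4 to 54.2 ± 12.4 CPM (-0.85, SE 0.22, limma FDR 0.00171). In *Kat6a*+/- NSPCs the same 3 genes rose and the same 2 fell, against 69.7% of genes called (35.4% higher and 34.2% lower). These 5 of 5 calls became 1 with litter as a fixed term, 2 without proliferating *Kat6a*+/- replicate 1 and 3 without differentiating *Kat6a*+/- replicate 4. The *Nlgn2* call in *Kat6a*+/- NSPCs was lost in 11 of 24 fits with 1 library left out (limma FDR up to 0.122). It was also lost in 2 of 9 other fits.

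In *Kat6a*-/- NSPCs the step between cultures passed the test for *Nlgn2* and *Nlgn3* alone of the 5 genes. *Nlgn2* fell from 188 ± 15.6 to 124 ± 17.6 CPM (-0.61, SE 0.09, limma FDR 3.69e-06) and *Nlgn3* from 107 ± 24.9 to 41.5 ± 15.4 CPM (-1.39, SE 0.23, limma FDR 2.20e-05), 2 of 5 against 69.2% of genes called, with 33.5% lower. *Nlgn1* was at 33.8 ± 3.79 CPM before and 36.2 ± 20.5 CPM after (-0.02, SE 0.29, 95% interval -0.62 to 0.57), and *Nrxn2* at 154 ± 38.8 and 198 ± 70.8 CPM (0.32, SE 0.25). The ranges of proliferating *Kat6a*-/- and differentiating *Kat6a*+/+ libraries overlapped for *Nlgn1*, at 29.8 to 38.4 against 32.2 to 41.1 CPM. They also overlapped for *Nrxn3*, at 6.48 to 20.7 against 6.55 to 12.9 CPM. Most *Kat6a*-/- values of *Nrxn3* (20.7, 10.6, 15.2 and 6.48 CPM) lay outside the *Kat6a*+/+ range. The same ranges did not overlap for *Nlgn2*, at 168 to 206 against 140 to 153 CPM. They touched at their ends for *Nlgn3*, at 70.0 to 122 against 41.8 to 70.6 CPM, and for *Nrxn2*, at 120 to 210 against 202 to 262 CPM.

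In the differentiating culture *Nlgn2* was the 1 of the 5 genes whose *Kat6a*-/- range lay apart from the other genotypes. Its 4 *Kat6a*+/+ libraries had 150, 153, 143 and 140 CPM, its *Kat6a*+/- libraries 163, 145, 162 and 164 CPM, and its *Kat6a*-/- libraries 103, 138, 115 and 139 CPM. Every *Kat6a*-/- library lay below every library of the other genotypes, though narrowly, at 139 CPM against 140 CPM in the lowest *Kat6a*+/+ library. *Kat6a*+/+ and *Kat6a*+/- libraries overlapped. Such ranges without overlap, with *Kat6a*-/- lower, were found for 14.7% of 13339 genes tested against *Kat6a*+/+, and for 9.48% against *Kat6a*+/-. The fall of *Nlgn2* had a log2 fold-change of -0.34 against *Kat6a*+/+ (SE 0.06, FDR 6.49e-04 by limma) and -0.46 against *Kat6a*+/- (SE 0.07, FDR 8.02e-04 by limma). The second comparison called 1 of the 5 genes, where 37.5% of genes were called and 18.5% were called lower, and that count ran from 0 without *Kat6a*-/- replicate 1 or 3 to 4 without *Kat6a*-/- replicate 2.

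The other neuroligins overlapped between the genotypes. For *Nlgn3* the libraries held 70.6, 41.8, 56.3 and 48.2 CPM (*Kat6a*+/+), 51.5, 49.3, 43.9 and 36.7 CPM (*Kat6a*+/-) and 24.9, 59.6, 33.4 and 48.1 CPM (*Kat6a*-/-), and its fitted log2 fold-change in *Kat6a*-/- vs. *Kat6a*+/+ was -0.80 (SE 0.18, limma FDR 0.00226). For *Nlgn1* they held 36.6, 32.2, 35.6 and 41.1 CPM (*Kat6a*+/+), 48.6, 22.2, 29.7 and 33.6 CPM (*Kat6a*+/-) and 20.8, 65.6, 23.6 and 34.7 CPM (*Kat6a*-/-). Its group means were equal, 36.4 and 36.2 CPM, while the weighted fit gave -0.53 (SE 0.19, limma FDR 0.0356). The *Kat6a*-/- libraries of *Nlgn1* stood on both sides of the *Kat6a*+/+ range, with replicates 1 and 3 below it and replicate 2 above it.

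The neurexins were as uneven. *Nrxn3* stood at 12.9, 6.55, 8.83 and 9.10 CPM (*Kat6a*+/+), 19.8, 8.29, 6.28 and 11.6 CPM (*Kat6a*+/-) and 8.46, 56.5, 13.1 and 27.6 CPM (*Kat6a*-/-). In this culture, which did not enter the choice of the gene, 3 of 4 *Kat6a*-/- libraries were above the *Kat6a*+/+ range, and the means differed 2.83-fold, but the fitted log2 fold-change of 0.47 (SE 0.35, limma FDR 0.276) did not pass the threshold. *Nrxn2* stood at 202, 218, 218 and 262 CPM (*Kat6a*+/+) and 152, 301, 152 and 187 CPM (*Kat6a*-/-), with a fitted value of -0.44 (SE 0.17, limma FDR 0.0480). Its *Kat6a*+/- libraries ran from 115 to 321 CPM.

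In all, 4 of the 5 genes were called lower in differentiating *Kat6a*-/- vs. *Kat6a*+/+ NSPCs, where 54.4% of 13339 genes were called and 27.7% were called lower. These calls depended on how the libraries were weighted. By quality weight, 69.0% of the *Kat6a*-/- group lay with replicate 3 and 4.22% with replicate 2. Without the weights 0 of the 5 genes were called (*Nlgn2* -0.26, limma FDR 0.0708, *Nlgn3* -0.43, limma FDR 0.224), and edgeR also called 0. At an unadjusted p under 0.05 limma with weights had 4 of the 5. Without *Kat6a*-/- replicate 1 or replicate 3 the count was 0 as well, and it was 2 without *Kat6a*+/+ replicate 1, 3 or 4. *Nlgn2* kept its sign in every fit, from -0.50 to -0.21, and DESeq2 gave -0.23 with an FDR of 0.062. For *Nrxn3* the DESeq2 value was 1.51 with an FDR of 0.015. In *Kat6a*+/- vs. *Kat6a*+/+ NSPCs limma called 0 of 13339 genes, 1926 of them at an unadjusted p under 0.05, and the 5 genes lay between -0.34 and 0.35 on the log2 scale.

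The 4 differentiating *Kat6a*-/- libraries had the same order for *Nrxn2*, *Nrxn3*, *Nlgn1* and *Nlgn3*, with replicate 1 lowest, then replicates 3 and 4, and replicate 2 highest. Over the *Kat6a*+/+ mean, replicate 2 stood at 6.05 for *Nrxn3* and 1.80 for *Nlgn1*, and replicate 1 at 0.906 and 0.573. The summed markers of neurons and of astrocytes had this order too, and those of neural stem cells did not, with replicate 3 lowest (8360 CPM), then replicates 4 (9220 CPM) and 1 (9310 CPM) and replicate 2 highest (12100 CPM). Mesenchymal and meningeal markers ran the opposite way, at 193, 190, 128 and 20.4 CPM in replicates 1, 3, 4 and 2. Oligodendrocyte lineage markers, at 860, 1160, 1310 and 855 CPM in these replicates, did not have the order. Interneuron, excitatory lineage and endothelial markers did not have it either. Astrocyte markers summed to 1890, 2160, 3580 and 7060 CPM in replicates 1, 3, 4 and 2, and neuron markers, most of which was *Map2*, to 532, 614, 691 and 916 CPM. *Nlgn2* differed from the rest in that replicates 2 and 4 were alike (138 and 139 CPM). Replicates 1 and 2 came from one litter, 4633, whose *Kat6a*+/+ library had 8.83 CPM of *Nrxn3* and 35.6 CPM of *Nlgn1*, between the 2 *Kat6a*-/- values for *Nlgn1* and close to the lower one for *Nrxn3*. The part of cell composition in this spread was not tested.

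**Figure D4:**
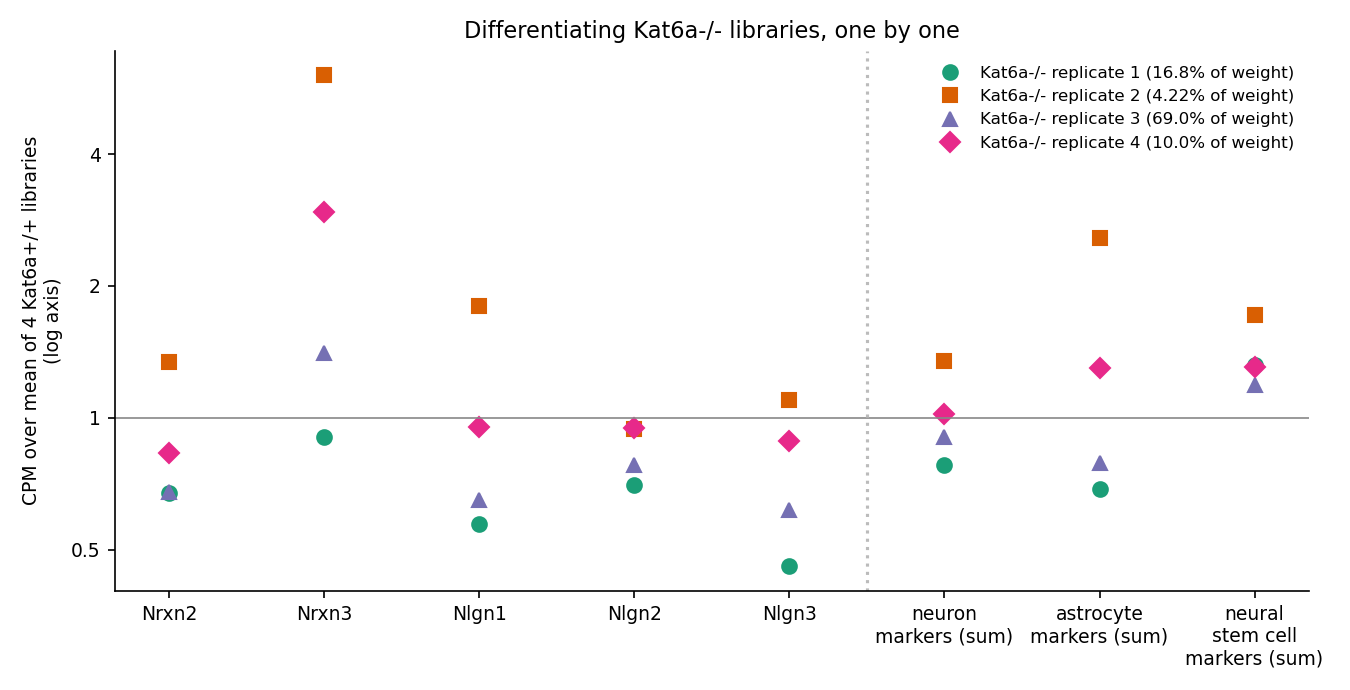
Each point is a differentiating *Kat6a*-/- library, as its CPM over the mean of the 4 *Kat6a*+/+ libraries (logarithmic vertical axis), for the 5 genes and for the summed markers of 3 cell types. The legend gives the share of the quality weight of the group that each library carried, which ran from 4.22% for replicate 2, the highest for *Nrxn3*, to 69.0% for replicate 3.

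Markers of neurons and their progenitors moved in both directions with genotype in this culture. *Dcx*, a microtubule protein of migrating neurons, was at 39.3 ± 23.9 CPM (*Kat6a*+/+) and 4.55 ± 3.77 CPM (*Kat6a*-/-), and *Eomes*, which marks intermediate progenitors of excitatory neurons, at 19.9 ± 7.45 and 1.12 ± 0.607 CPM (mean ± SD, n = 4). Of the 10 neuron markers 2 were called higher and 5 lower. Those called higher were *Gap43* (0.86, SE 0.19, on the log2 scale) and *Stmn2*, a scarce transcript (2.44, SE 0.56). *Map2* (0.00, SE 0.10), *Rbfox3* (0.01, SE 0.33) and *Syt1* (0.47, SE 0.45) were not called. Of the 2 excitatory lineage markers tested, *Eomes* fell and *Neurod1*, a scarce transcript, rose (2.12, SE 0.54). Calls on further lists included 0 higher and 3 lower of 4 interneuron markers, 1 higher and 3 lower of 8 astrocyte markers, and 3 higher and 4 lower of 8 neural stem cell markers. All these calls used the quality weights, and 54.4% of all genes tested were called, 27.7% lower. *Aqp4* was called lower (-1.61, SE 0.62), though its unweighted means were 117 ± 31.9 (*Kat6a*+/+) and 291 ± 385 CPM (*Kat6a*-/-). Astrocyte markers summed to 2270 to 3240 CPM in *Kat6a*+/+ and 1890 to 7060 CPM in *Kat6a*-/- libraries. The 7 excitatory lineage markers summed to 11.4 to 27.5 CPM in *Kat6a*+/+ libraries, mostly from *Eomes*, and 1.80 to 3.16 CPM in *Kat6a*-/- libraries, and the 6 mesenchymal and meningeal markers to 11.7 to 26.3 and 20.4 to 193 CPM. The 8 oligodendrocyte lineage markers summed to 1340 to 1540 CPM in wild-type libraries and 855 to 1310 CPM in *Kat6a*-/- ones, with 1 higher and 5 lower of 7 tested. Their part in the neuroligin values was not tested.

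Whether the effect of genotype differed between the cultures was tested in one fit of all 24 libraries. *Nlgn1* was the 1 member of the 5 that was called, where 13.9% of 13590 genes were and 7.58% were lower, with a log2 fold-change in *Kat6a*-/- vs. *Kat6a*+/+ that was 1.40 lower in differentiating than in proliferating NSPCs (-1.40, SE 0.41, limma FDR 0.0265). The call was lost with a fixed litter term (-1.37, limma FDR 0.102) or without proliferating *Kat6a*+/+ replicate 1 (-1.36, limma FDR 0.0764), and the count was 2 without differentiating *Kat6a*-/- replicate 2. The estimate was -3.86 (SE 1.40) for *Nrxn3*, given as a description, and -0.59 (SE 0.35, limma FDR 0.273) for *Nrxn2*, -0.15 (SE 0.13, limma FDR 0.462) for *Nlgn2* and -0.54 (SE 0.32, limma FDR 0.274) for *Nlgn3*. For *Kat6a*+/- limma called 0 of 13590 genes, 412 of them at an unadjusted p under 0.05, and 0 of the 5 genes at either.

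Known partners of neurexins and neuroligins were then counted in *Kat6a*-/- vs. *Kat6a*+/+ NSPCs, on lists written from gene function with earlier results of these data known. In proliferating NSPCs 22 of 64 partner genes tested were called, 16 higher and 6 lower, where 30.0% of all genes tested were called and 16.2% called higher. The postsynaptic side held the largest single change. Among 16 tested regulators of neuroligins and postsynaptic scaffolds 2 rose and 1 fell. *Dlgap1*, a scaffold that binds PSD-95 and Shank proteins, rose from 1.88 ± 1.07 to 17.4 ± 5.13 CPM (log2 fold-change 3.33, SE 0.44, limma FDR 2.33e-04). *Magi1*, another scaffold, rose by 0.26 (SE 0.07), and *Lhfpl4*, which ties GABA-A receptors to neuroligin-2, fell by 0.56 on the log2 scale (SE 0.10). The list median was 0.01, against -0.00 for all genes tested.

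Among 7 tested neurexin ligands of proliferating NSPCs 2 rose and 2 fell (median 0.19). *Nxph1*, a secreted neurexophilin bound by alpha-neurexins, rose from 44.3 ± 11.8 to 97.5 ± 32.6 CPM (1.03, SE 0.26, limma FDR 0.0114). *Lrrtm4*, a postsynaptic leucine-rich repeat protein, fell by 1.19 (SE 0.33) and *C1ql3*, a secreted C1q-domain protein, by 0.71 (SE 0.21) on the log2 scale. Of the cytoplasmic partners 2 of 5 rose and 0 fell (median 0.58). These were *Cask*, the scaffold bound to the neurexin tail, from 99.4 ± 3.72 to 147 ± 9.38 CPM (0.58, SE 0.06), and the adaptor *Apba1* (0.96, SE 0.16). Of 5 genes for splicing and shedding of neurexins, *Khdrbs3*, an RNA-binding protein that acts on neurexin splicing, fell from 222 ± 39.3 to 97.2 ± 12.6 CPM (-1.06, SE 0.17, limma FDR 7.60e-04), and the other 4 were not called (median 0.08).

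Of the other synaptic adhesion molecules 8 of 19 rose and 1 fell in proliferating NSPCs (median -0.01). *Cadm2*, an immunoglobulin-type adhesion protein, rose from 7.91 ± 3.26 to 50.3 ± 10.1 CPM (2.87, SE 0.32), *Slitrk6* by 2.64 (SE 0.44) and the receptor phosphatase *Ptprd* by 1.46 (SE 0.18). Genes of the presynaptic vesicle cycle were mostly not called, with 2 higher and 1 lower of 12 (median 0.02). The synapsin gene *Syn2* rose by 0.84 (SE 0.19), and the vesicle protein gene *Syp* fell by 0.78 (SE 0.17). *Dlgap1*, *Cadm2*, *Slitrk6*, *Ptprd*, *Cask*, *Apba1*, *Nxph1*, *Khdrbs3*, *Lhfpl4*, *Syn2* and *Syp* were called in all 20 alternative fits.

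In differentiating NSPCs 44 of 71 partner genes tested were called, 11 higher and 33 lower, where 54.4% of all genes tested were called and 27.7% called lower. This count fell to 22 (8 higher, 14 lower) without the weights, to 6 without *Kat6a*-/- replicate 1 and to 7 without *Kat6a*-/- replicate 3. Among 10 neurexin ligands 2 were higher and 4 lower (median -0.42, against -0.02 for all genes tested), and among 17 neuroligin regulators and scaffolds 2 were higher and 9 lower (median -0.32). *Lrrtm1*, a postsynaptic neurexin receptor, fell from 6.43 ± 1.95 to 1.54 ± 1.16 CPM (-2.47, SE 0.39, limma FDR 2.28e-04), and the scaffold *Dlgap3* from 52.2 ± 9.41 to 23.2 ± 4.25 CPM (-1.08, SE 0.16). *Bsn*, a scaffold of the presynaptic active zone, fell from 19.6 ± 1.53 to 7.39 ± 3.26 CPM (-1.82, SE 0.15). These 3 were called in all 22 alternative fits, each time lower in *Kat6a*-/-.

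The remaining differentiating calls depended more on single libraries. *Nxph1* went the opposite way from proliferating cells, from 15.9 ± 7.06 to 6.40 ± 1.48 CPM (-1.66, SE 0.26), and its FDR (limma) rose to 0.0807 when *Kat6a*-/- replicate 1 was left out and to 0.123 when replicate 3 was. *Shank2* (-1.50, SE 0.18) and *Mdga2*, which covers neuroligins and blocks their binding to neurexins (1.04, SE 0.15), also lost their calls without either of these libraries, as did *Khdrbs3* (-0.53, SE 0.08) and its relative *Khdrbs1* (-0.52, SE 0.10). *Pclo*, the partner of *Bsn* at the active zone, had -0.92 (SE 0.20), and lost its call in 4 of 22 fits. *Psen2*, of the gamma-secretase that cleaves neurexins, was at 0.38 (SE 0.11), and splicing and shedding genes counted 1 higher and 2 lower of 5 (median 0.02).

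*Lrrtm4* (-2.72, SE 0.58), *Apba2* (-2.64, SE 0.41), *Apba1* (-0.77, SE 0.18), *Lin7a* (2.54, SE 0.35), *Slitrk3* (-2.85, SE 0.51), *Cadm3* (-1.32, SE 0.46), *Il1rap* (0.97, SE 0.18) and *Snap25* (-3.00, SE 0.54) were called with the weights and not without them. For *Cadm3* the unweighted means were 6.60 ± 2.68 CPM (*Kat6a*+/+) and 7.14 ± 6.33 CPM (*Kat6a*-/-), opposite in direction to the fit. Of the other synaptic adhesion molecules 3 were higher and 10 lower of 21 (median -0.31), of the cytoplasmic partners 2 higher and 3 lower of 6 (median 0.06), and of the presynaptic vesicle genes 1 higher and 5 lower of 12 (median -0.17).

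**Figure D5:**
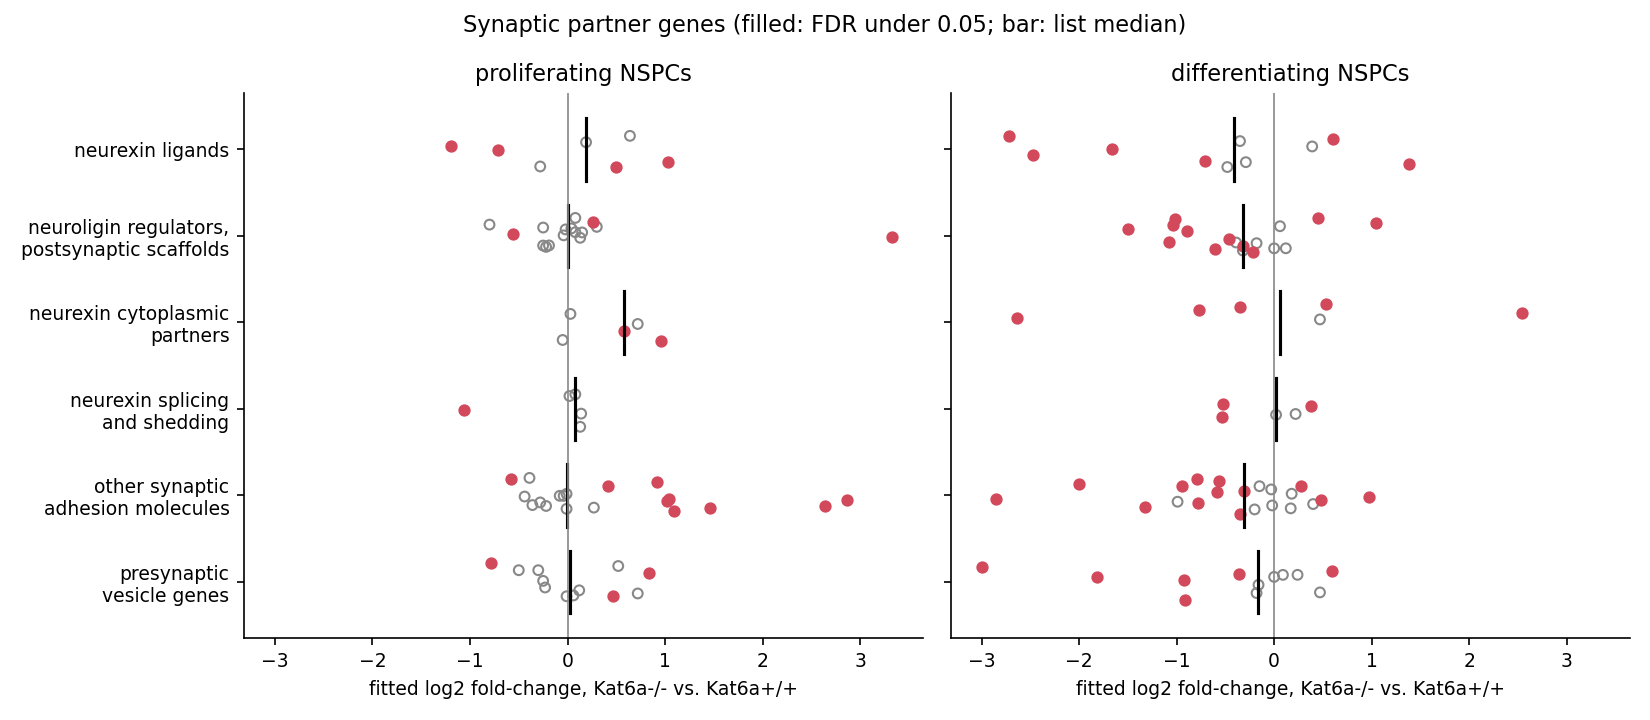
Each point is a tested gene of one of 6 partner lists, with its fitted log2 fold-change in *Kat6a*-/- vs. *Kat6a*+/+ NSPCs on the horizontal axis, filled where the FDR was under 0.05, and the black bar is the list median. In proliferating cells *Dlgap1* (3.33), *Cadm2* (2.87) and *Slitrk6* (2.64) lie far to the right, and in differentiating cells more filled points lie left of 0 (33) than right of it (11).

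Over all 24 libraries the genes whose log2 CPM ran most like that of *Nrxn3*, out of 13589 others, were *Nkain3* (Pearson's r 0.934), *Dlgap1* (0.928) and *Chst2* (0.927). For *Nlgn1* they were *Dok6* (0.953), *Gpm6a* (0.938) and *Fam120c* (0.937), and for *Nrxn2* they were *Idh3g* (0.903), *Frs2* (0.897) and *Oma1* (0.897). *Nlgn2* was followed most closely by *Duxbl1* (0.945), *Zranb3* (0.940) and *Exd2* (0.939), and *Nlgn3* by *Smoc1* (0.934), *Arv1* (0.932) and *Utp6* (0.931). Among the 5 genes themselves r was 0.90 between *Nrxn3* and *Nlgn1* and 0.78 between *Nlgn2* and *Nlgn3*, and -0.62 between *Nrxn3* and *Nlgn2*. These values describe 24 libraries that share 2 cultures, 3 genotypes and their litters, and the step between cultures enters all of them.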

How the data were processed

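The deposited values were raw counts of reads per gene, 1 table per library. Per the study's methods, the authors aligned reads to mm39 with Rsubread and obtained gene-level counts with featureCounts and a dated release of strict RefSeq annotation. The versions of these tools for the RNA counts and the strand setting were not given in the sources used here, and libraries were stranded and poly(A)-selected. Of 26411 genes, 21030 were protein-coding, and these were kept except for genes of the Y chromosome. *Xist* and 52 genes without a biotype were left out. Genes with low counts were removed with filterByExpr, which left 12276 genes in the 12 proliferating, 13339 in the 12 differentiating and 13590 in all 24 libraries. CPM are counts over TMM-scaled library totals, without quality weights. A prior count of 2 was added for log2 values.

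Proliferating libraries were fitted with limma-voom (limma 3.58.1, edgeR 4.0.16, R 4.3.3) with litter as a random block (correlation 0.287), and differentiating libraries with limma-trend, without a litter term and with quality weights per library, as in the study's methods. The comparisons of cultures and the interaction used limma-voom on the 24 libraries together, with litter again as the block. FDR values are Benjamini-Hochberg adjusted over all genes tested, with 0.05 as the threshold. A library with a large quality weight counts more in a fitted log2 fold-change, so that this can differ in sign from the ratio of means. Alternatives were edgeR's quasi-likelihood test, DESeq2 1.42.0, library totals in place of TMM, no filter, other treatments of litter and weights, a replicate block, *Xist* as a covariate and each library left out. The fits were run on simulated counts without litter effects or differences in library quality, so that the handling of litter and weights was not tested there. No pair of replicates matched within sampling noise (lowest chi-square per degree of freedom 5.81). Library totals were 7826660 to 40838203 in the proliferating and 14836869 to 23692125 in the differentiating culture, and counting intervals cover counting error only.

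The 5 genes and the gene lists were chosen with earlier results of these data known. Named besides the 5 genes are, per partner list and culture, up to 3 called genes with the largest log2 fold-change and an average log2 CPM above 0, the 3 genes with the highest Pearson's r to each of the 5 genes, and markers read beside a result. One gene that this rule names is not reported here.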

Additional observations from a re-analysis of the deposited data

Results flagged for a closer look

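In 2 of 30 groups of 4 libraries, 1 library stood apart from the other 3 by Dixon's test, and chance gives about 1 in 20. *Nlgn2* was at 145 CPM in differentiating *Kat6a*+/- replicate 2, against 162 to 164 CPM in the other 3 libraries. *Nlgn3* was at 70.0 CPM in proliferating *Kat6a*-/- replicate 4, against 116 to 122 CPM in the other 3, and without that library its log2 fold-change in *Kat6a*-/- vs. *Kat6a*+/+ NSPCs was 0.28 (limma FDR 0.112).

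The effect of *Kat6a* loss on *Nlgn1* differed between the cultures by -1.40 on the log2 scale (limma interaction, FDR 0.0265). The 4 *Kat6a*-/- libraries were all above the *Kat6a*+/+ range in the proliferating culture, and 2 were below and 1 above it in the differentiating culture.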

How the results depend on the processing

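Calls of the 5 genes depended on weights, litter and single libraries in differentiating NSPCs. In proliferating *Kat6a*-/- vs. *Kat6a*+/+ NSPCs *Nrxn3* ran from 4.59 to 5.37 and *Nlgn1* from 1.03 to 1.32 on the log2 scale over all alternatives. Over the 5 genes and all comparisons, 418 of 495 values from other settings and 877 of 960 with 1 library left out kept their direction and side of the threshold. The 3 to 28 counts of *Nrxn3* in proliferating *Kat6a*+/+ and *Kat6a*+/- libraries limit its precision there to the counting error given above. The causes of the changes below were not tested.

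In differentiating *Kat6a*-/- vs. *Kat6a*+/+ NSPCs 4 of the 5 genes were called, against 0 with edgeR, 1 with DESeq2, 2 with no filter, 0 with litter as a fixed term, 1 with *Xist* as covariate, 0 without quality weights, 0 with limma-voom and a litter block, and 0 to 4 with 1 library left out. Partner genes called there, 44, became 22 with edgeR, 28 with DESeq2, 14 with litter fixed, 22 without weights, 20 with limma-voom and a litter block, and 6 to 54 with 1 library left out. All genes called there, 7258, became 3244 with edgeR, 4076 with DESeq2, 1785 with litter fixed, 3097 without weights, 2806 with limma-voom, 1212 without *Kat6a*-/- replicate 1 and 939 without replicate 3. In proliferating *Kat6a*-/- vs. *Kat6a*+/+ NSPCs 3686 became 1936 with litter fixed and 2327 without *Kat6a*+/+ replicate 1. For *Kat6a*-/- vs. *Kat6a*+/- the count of the 5 genes was 4 with litter fixed in proliferating NSPCs (2 otherwise) and, in differentiating NSPCs (1 otherwise), 3 with library totals, 0 with litter fixed and 0 to 4 with 1 library left out. In proliferating *Kat6a*-/- vs. *Kat6a*+/+ NSPCs 2 rather than 3 of the 5 genes were called in all 8 other fits, where *Nrxn2* was lost. DESeq2 called 1 in proliferating *Kat6a*+/- vs. *Kat6a*+/+ NSPCs. The step between cultures in *Kat6a*+/- (5) gave 1 with litter fixed and 2 to 5 with 1 library left out, and the interaction in *Kat6a*-/- (1) gave 2 with edgeR, DESeq2 or no filter, 0 with litter fixed and 0 to 2 with 1 library left out.

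Signs turned as follows, on the log2 scale. *Nlgn1* in differentiating *Kat6a*-/- vs. *Kat6a*+/+ was 0.00 with DESeq2, and -0.63 to 0.24 with 1 library left out. Against *Kat6a*+/- it was 0.11 with edgeR, 0.12 with DESeq2, 0.02 without weights and 0.09 with limma-voom, and -0.78 to 0.20 with 1 library left out. In differentiating *Kat6a*+/- vs. *Kat6a*+/+ it was -0.12 with edgeR, -0.11 with DESeq2, -0.01 with library totals, -0.02 with no filter, -0.23 with litter fixed, -0.45 with *Xist* and -0.17 without weights by either method, and -0.37 to 0.24 with 1 library left out. Its step between cultures in *Kat6a*-/- was 0.10 with edgeR, 0.11 with DESeq2, 0.01 with litter fixed and 0.00 with *Xist*, and -0.41 to 0.16 with 1 library left out. *Nrxn2* in proliferating *Kat6a*+/- vs. *Kat6a*+/+ was -0.03 with edgeR and DESeq2, -0.01 without the litter block, -0.02 with a replicate block or *Xist*, and -0.15 to 0.08 with 1 library left out. In differentiating NSPCs with 1 library left out *Nrxn2* was -0.34 to 0.03 in *Kat6a*+/- and -0.52 to 0.09 in *Kat6a*-/- vs. *Kat6a*+/+, and -0.47 to 0.17 in *Kat6a*-/- vs. *Kat6a*+/- (0.11 with litter fixed, 0.02 with *Xist*). *Nrxn3* was -0.08 with *Xist* and -0.37 to 0.74 with 1 library left out in differentiating *Kat6a*+/- vs. *Kat6a*+/+, and -0.02 with library totals and -0.27 to 1.17 with 1 library left out in *Kat6a*-/- vs. *Kat6a*+/-. *Nlgn2* was -0.00 with *Xist* in differentiating *Kat6a*+/- vs. *Kat6a*+/+, and -0.04 to 0.10 with 1 library left out in proliferating *Kat6a*-/- vs. *Kat6a*+/-. In the interaction for *Kat6a*+/-, *Nlgn3* was -0.01 with library totals and -0.13 to 0.15, and *Nrxn2* -0.42 to 0.06, with 1 library left out. Among partners in differentiating *Kat6a*-/- vs. *Kat6a*+/+, *Cadm3* was 0.11 with edgeR and 0.12 with DESeq2, and *Apba1* -0.91 to 0.06 with 1 library left out.

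Samples with the same replicate number did not deviate together (r -0.483 to 0.545, 7 of 36 pairs over 0.1), so that the numbers were not taken to pair libraries across genotypes. Between the cultures 6 embryos, by library name, gave a library to each, and with the embryo as a random block the 5 genes kept their calls (5 and 2 called between cultures in *Kat6a*+/+ and *Kat6a*-/-, and 1 in the interaction). The replicate block left 2 rather than 3 of the 5 genes called in proliferating *Kat6a*-/- vs. *Kat6a*+/+ NSPCs, where *Nrxn2* lost its call, and 1183 rather than 1813 of all genes in *Kat6a*-/- vs. *Kat6a*+/-.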

Other observations

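The partner genes of neurexins and neuroligins also differed between the cultures. In differentiating vs. proliferating *Kat6a*+/+ NSPCs 6 of 12 tested neurexin ligands rose and 3 fell (median log2 fold-change 1.02, against 0.02 for all genes tested), where 36.7% of all genes were called higher and 36.2% lower. In *Kat6a*-/- NSPCs 4 rose and 4 fell (median -0.77), where 69.2% of all genes were called and 33.5% called lower. Other synaptic adhesion molecules counted 11 higher and 4 lower of 21 in *Kat6a*+/+ (median 0.32) and 7 higher and 7 lower in *Kat6a*-/- NSPCs (median -0.10). For neuroligin regulators and postsynaptic scaffolds 8 were higher and 3 lower of 17 in *Kat6a*+/+ (median 0.34), and 5 were higher and 5 lower in *Kat6a*-/- NSPCs (median 0.05). The counts of *Kat6a*+/- NSPCs for these lists, in the same order, were 6 higher and 2 lower, 12 higher and 4 lower, and 7 higher and 2 lower. Whether these lists differed between genotypes was not tested.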
